A study of Mus musculus with 6 samples.

Results

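The ADAM proteases are membrane-anchored metalloproteinases of the adamalysin family, and 7 of their genes were followed here in mouse bone marrow-derived macrophages driven towards osteoclasts, the bone-resorbing cells: Adam8, Adam9, Adam10, Adam12, Adam15, Adam17 and Adam19. The members were taken by gene symbol from the deposited table, in which each symbol had 1 row; they are 7 of 26106 genes in the table, and 6 of them were among the 15590 genes abundant enough to test. Adam12 did not pass that limit. ADAM proteins carry a prodomain, a zinc metalloproteinase domain, a disintegrin domain and, behind the membrane anchor, a short cytoplasmic tail. Their catalytic members cut the outer parts of other membrane proteins from the cell surface, a process called shedding, which frees cytokines such as TNF and triggers Notch signalling. In cells of the macrophage and osteoclast lineage they have also been studied for roles in migration and in the fusion of precursors.

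The macrophages were wild type (WT) primary cells grown from the marrow of 6-week-old male C57BL/6 mice. All cultures received 30 ng/mL M-CSF, the macrophage growth factor, and 100 ng/mL RANKL, the osteoclast-inducing cytokine, in alpha-MEM with 10% serum for 2 days. The Ctrl group (n = 3 libraries) had nothing further named, and the ZM group (n = 3 libraries) also received 10 uM of ZM-306416, a VEGF receptor kinase inhibitor; no vehicle in Ctrl was named. Whether the 3 libraries within each group derive from different animals or dishes is not in the labels; p-values here therefore reflect library-to-library spread, part of which may be technical.

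Total counts lay between 45512004 and 54256377 per library. ZM replicate 3 stood apart: on the leading principal component of log2 CPM, with 73.9% of the variance, it lay at 63.6 against 20.6 and 4.94 for ZM replicates 1 and 2 and -32.2 to -28.2 for Ctrl. Results that rest on it are given without it as well. In CPM (counts scaled to a common library size), 6 macrophage markers summed to 3186 to 3371 in Ctrl and to 4120, 3906 and 5588 in ZM replicates 1, 2 and 3. The summed level of 6 osteoclast markers was 4009 to 4248 CPM in Ctrl and 649.7, 652 and 291 CPM in the same ZM libraries. Markers of neutrophils, T cells and B cells summed to at most 0.716 CPM in any library, with Ly6g, Elane, Mpo, Cd8a, Pax5 and Ebf1 not analysed here. Mast cell or basophil markers went from 2.14 to 3.32 CPM in Ctrl to 0.297 to 1.07 CPM in ZM, and erythroid markers from 3.04 to 3.32 to 0.593 to 0.871 CPM. Megakaryocyte markers went from 5.68 to 8.92 CPM in Ctrl to 18.8 to 38.6 CPM in ZM, endothelial markers from 41.1 to 51.8 to 7.18 to 21.2 CPM, and stromal or osteoblast markers from 18.8 to 20.4 to 13.2 to 16.8 CPM. Few genes carry these sums. Under 1 CPM on average, or not analysed, were 4 of 5 mast cell or basophil and 3 of 4 erythroid markers. The same held for 3 of 4 megakaryocyte, 3 of 4 endothelial and 4 of 6 stromal or osteoblast markers. In bulk RNA, fewer cells of a type and less RNA per cell cannot be told apart, and the part of these shifts in the results was not tested.

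Adam8 was by far the most abundant of the ADAM transcripts and Adam12 was close to undetected. Levels of different genes are compared here as deposited FPKM, which divides the count by gene length and library total, and are given as mean ± SD of 3 libraries. In Ctrl the order was Adam8 (233 ± 6.45 FPKM), Adam10 (67.4 ± 4.99 FPKM), Adam17 (45.6 ± 1.63 FPKM), Adam9 (42.4 ± 2.28 FPKM), Adam15 (17.5 ± 0.572 FPKM), Adam19 (0.554 ± 0.0361 FPKM) and Adam12. In ZM the order of the means was unchanged, at 183 ± 57.4 FPKM for Adam8, 66.3 ± 10.8 for Adam10, 54.0 ± 6.38 for Adam17, 43.5 ± 7.61 for Adam9, 29.9 ± 5.25 for Adam15 and 0.691 ± 0.140 for Adam19. Adam8 lay above Adam10 in 6 of 6 libraries, 3.46-fold in Ctrl and 2.76-fold in ZM. Adam17 and Adam9 were neighbours whose ranges overlapped in both groups, although Adam17 was the higher of the pair in 6 of 6 libraries. Adam10 and Adam17 did not overlap in Ctrl and overlapped in ZM. Adam9 exceeded Adam15 in 5 of 6 libraries, and in ZM replicate 3 Adam15 was at 35.6 FPKM against 35.3 FPKM for Adam9. Adam15 and Adam19 were 31.5-fold apart in Ctrl, the widest step between neighbours other than that to Adam12.

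**Figure D1:**
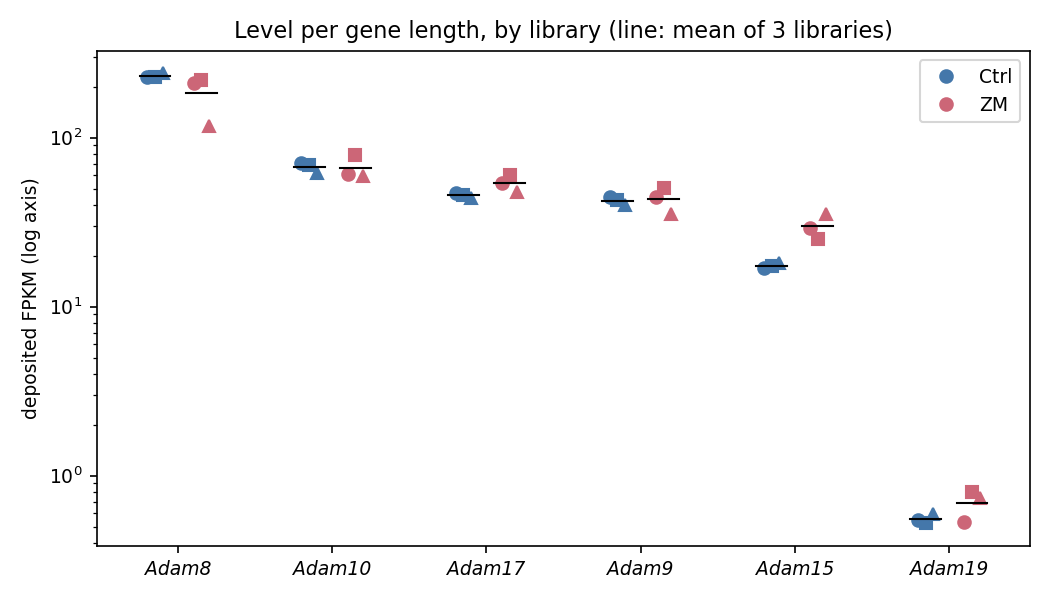
Deposited FPKM (log axis) of 6 ADAM genes in each library, Ctrl in blue and ZM in red, with circles, squares and triangles for replicates 1, 2 and 3 and a line at each mean. Adam8 lies highest at 233 FPKM in Ctrl, Adam19 lowest at 0.554 FPKM, and the ZM values of Adam15 all lie above its Ctrl values; Adam12, listed at 0 in a library of each group, cannot be drawn on this axis.

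The promoters of the member with a called difference, Adam15, of the most abundant member, Adam8, and of the tumour necrosis factor convertase Adam17 are shown as context for these levels. Each line gives the 250 bases before the RefSeq transcript start (GRCm38.p6, reverse strand for all 3 genes), 5′ to 3′, at chr3:89350029-89350278, chr7:139992563-139992812 and chr12:21373633-21373882 in that order, and capitals mark GGGCGG (the Sp1 motif) and GGAAA (the NFAT core) on either strand.
Adam15: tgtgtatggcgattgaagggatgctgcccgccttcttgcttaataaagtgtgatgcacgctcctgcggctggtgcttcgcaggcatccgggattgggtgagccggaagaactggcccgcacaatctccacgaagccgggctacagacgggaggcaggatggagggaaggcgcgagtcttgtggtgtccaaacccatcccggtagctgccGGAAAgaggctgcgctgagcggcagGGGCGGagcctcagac
Adam8: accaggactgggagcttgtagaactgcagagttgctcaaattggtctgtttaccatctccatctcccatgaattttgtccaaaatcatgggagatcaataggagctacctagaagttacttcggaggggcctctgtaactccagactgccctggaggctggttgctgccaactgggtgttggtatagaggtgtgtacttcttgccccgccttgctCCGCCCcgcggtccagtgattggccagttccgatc
Adam17: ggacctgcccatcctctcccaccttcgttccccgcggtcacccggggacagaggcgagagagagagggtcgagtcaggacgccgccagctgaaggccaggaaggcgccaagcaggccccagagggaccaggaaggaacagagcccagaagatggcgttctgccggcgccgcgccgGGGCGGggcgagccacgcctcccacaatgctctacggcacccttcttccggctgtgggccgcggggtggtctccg
The windows of Adam15 and Adam17 held 18 and 23 CG dinucleotides and 62.0% and 70.4% G and C, and that of Adam10 held 29 and 74.0%. The window of Adam8 held 6 CG dinucleotides and 52.8% G and C, close to the medians of 6 and 52.4% over 32851 windows. Both strands were searched, with overlaps counted, for these motifs and for the M-box of MITF, spelled CACATG, and the AP-1 motif, spelled TGANTCA. The Sp1 motif was found once in each of the 3 printed windows and in 32.7% of all windows of the same length. The NFAT core was found in that of Adam15 alone among the 3, and in 55.6% of all windows. The M-box and the AP-1 motif were in none of the 3, against 12.3% and 6.7% of all windows. Outside the 3, a window of Adam19, which was not called, held 2 NFAT cores, and another window of that gene held 1 AP-1 match. These matches describe letters and not binding.

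Setting ZM against Ctrl addresses how ADAM transcripts differ when the inhibitor is present during RANKL stimulation. Of the 6 ADAM genes tested, 1 rose, 0 fell and 5 were not called by edgeR's quasi-likelihood test at an adjusted p under 0.05, against 11% called among all genes tested (5.54% rose and 5.44% fell). At an unadjusted p under 0.05 there were 2 higher and 0 lower, with DESeq2 2 rose and 0 fell, and with limma-voom 1 rose and 0 fell. Over all genes, DESeq2 called 3295 of 15586 tested and limma-voom 1631 of 15590. How many of all genes passed the unadjusted limit was not counted, here or for the lists below. The groups did not overlap for 3 of the 6 genes, Adam15 and Adam17 higher and Adam8 lower in ZM, against 42.9% of all genes tested (21.5% higher, 21.4% lower), so this share is close to the background. The median log2 fold of the 6 was 0.20, against 0.0027 for all genes tested.

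**Figure D2:**
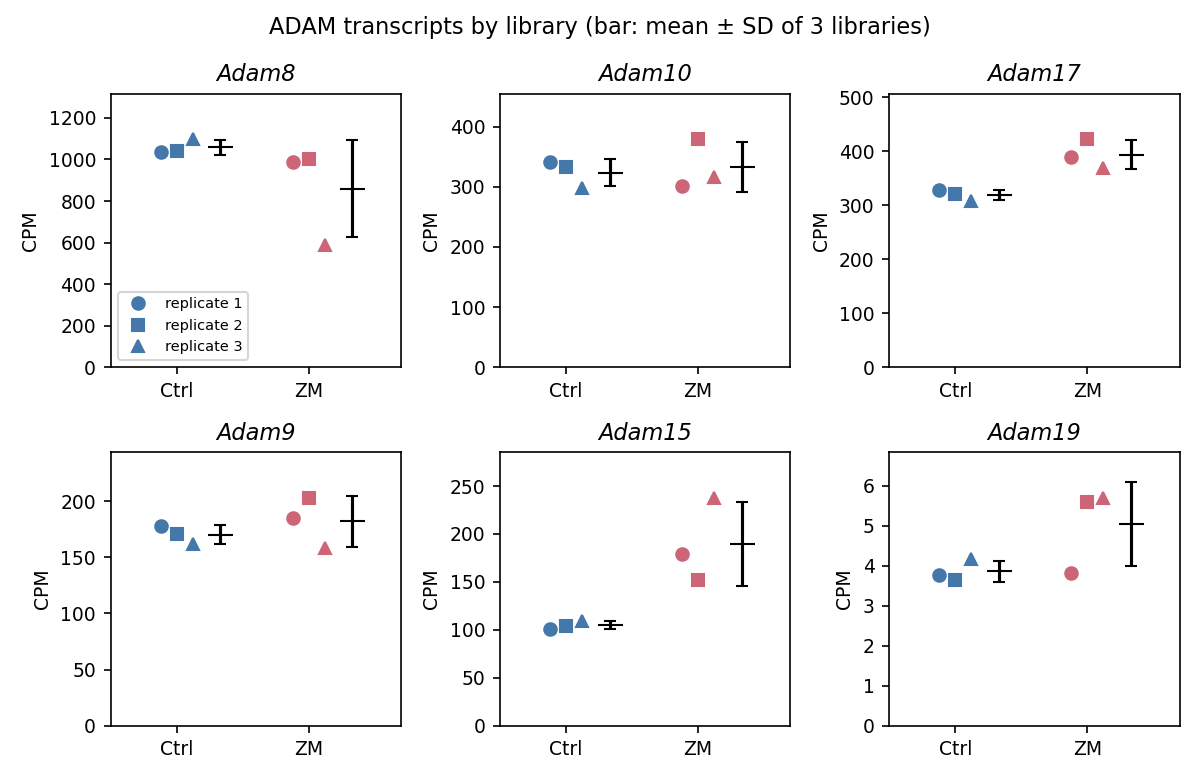
CPM of the 6 tested ADAM genes by library, 1 panel per gene with its own axis from 0, circles, squares and triangles for replicates 1, 2 and 3, and a black bar for the mean ± SD of 3 libraries. All ZM values of Adam15 (152 to 238 CPM) lie above its Ctrl values (101 to 109 CPM), and the low ZM value of Adam8 is that of replicate 3 at 589.9 CPM.

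Adam15, or metargidin, whose disintegrin domain binds integrins and whose tail binds SH3-domain proteins such as Src kinases, was the ADAM gene that rose. It is protein-coding (ENSMUSG00000028041) and lies at 89338542 to 89349996 on chromosome 3 of GRCm38, reverse strand. Its level was 101, 104 and 109 CPM in Ctrl replicates 1 to 3, against 179, 152 and 238 CPM across ZM replicates 1 to 3. All ZM libraries were above all Ctrl libraries, with ZM replicate 3 the highest. From 105 ± 3.93 to 189.7 ± 44.0 CPM the rise was 1.81-fold (log2 fold 0.85, SE 0.16, 95% interval 0.48 to 1.23, adjusted p = 0.0219, edgeR). Without ZM replicate 3 the log2 fold was 0.66 and the call was kept (adjusted p = 0.00122), and without ZM replicate 2 it was 0.99 (adjusted p = 0.00570). The call was lost without ZM replicate 1 (adjusted p = 0.0634) and without Ctrl replicates 1, 2 and 3 (adjusted p = 0.118, 0.108 and 0.106), while the log2 fold stayed between 0.83 and 0.90. Across the ZM libraries, Adam15 and the summed macrophage markers had the same order, with replicate 3 highest and replicate 2 lowest, and the part of that shift in the rise was not tested. Exons of Adam15 overlap those of the antisense gene 4731419I09Rik by 1263 bases, and that gene had 184 counts in all against 44388 for Adam15.

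Among 8800 genes with a symbol and a mean of at least 10 CPM, the 3 whose pattern over the 6 libraries was closest to that of Adam15 were Htatip2, Rtl5 and Tnfaip2. Likeness was the root mean square difference of log2 CPM after centring each gene on its own mean, which was 0.0396, 0.0401 and 0.0406 in that order. Tnfaip2, a gene induced by TNF, averaged 391 ± 4.61 CPM in Ctrl against 686 ± 154 in ZM, Htatip2 37.7 ± 2.29 against 66.5 ± 15.2 CPM, and Rtl5 15.7 ± 0.183 against 28.1 ± 6.72 CPM. These are descriptions of 6 libraries and carry no test of likeness.

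Adam17, the TNF-converting enzyme that also cuts growth factor precursors and cytokine receptors, was higher in ZM without passing the test. This protein-coding gene (ENSMUSG00000052593) lies at 21323509 to 21373632 on chromosome 12, reverse strand. It was at 328, 321 and 308 CPM in Ctrl replicates 1 to 3, against 389.7, 423 and 369.8 CPM across ZM replicates 1 to 3. The groups did not overlap, and the lowest ZM value was that of replicate 3, the library in which Adam15 was highest. The means were 319 ± 9.84 and 394 ± 26.7 CPM (log2 fold 0.31, SE 0.09, 95% interval 0.10 to 0.52, adjusted p = 0.0702, edgeR). The adjusted p was 0.00724 without ZM replicate 3 and 0.0159 with DESeq2, and above 0.05 in the other 16 alternatives, up to 0.252 without Ctrl replicate 3. Exons of Adam17 overlap those of Iah1 on the opposite strand by 311 bases; Iah1 had 9517 counts against 107708, and without a stated strand setting reads in the overlap cannot be assigned with certainty.

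Adam8, a protease of myeloid cells that stimulates osteoclast formation in culture, had nearly the same level in Ctrl and in ZM replicates 1 and 2, and a lower one in ZM replicate 3. It lies at 139978932 to 139992562 on chromosome 7, reverse strand (ENSMUSG00000025473). The Ctrl replicates 1, 2 and 3 were at 1035, 1040.1 and 1098 CPM, and the ZM replicates 1, 2 and 3 at 989, 1001 and 589.9 CPM. All ZM libraries were below all Ctrl libraries, but the gap between ZM replicate 1 and the lowest Ctrl library was small beside the distance to ZM replicate 3. The difference from 1058 ± 35.0 to 860.1 ± 234 CPM was not called (log2 fold -0.30, SE 0.20, 95% interval -0.75 to 0.16, adjusted p = 0.317, edgeR). Without ZM replicate 3 the log2 fold was -0.09 (adjusted p = 0.369). The summed osteoclast markers were at 649.7, 652 and 291 CPM in ZM replicates 1, 2 and 3, against at least 4009 CPM in Ctrl. The part of the marker shift in the Adam8 values was not tested.

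Adam10, the enzyme that cuts Notch receptors after ligand binding, differed little between the groups. It lies at 70678997 to 70780229 on chromosome 9, forward strand (ENSMUSG00000054693). Its level was 340.4, 332 and 298 CPM in Ctrl replicates 1 to 3, against 302, 379 and 316 CPM across ZM replicates 1 to 3, and the groups overlapped. The log2 fold was 0.04 (SE 0.12, 95% interval -0.23 to 0.31, adjusted p = 0.830, edgeR), and its sign turned under 5 of 18 alternatives.

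Adam9, or meltrin gamma, a widely expressed sheddase that is also known to bind integrins, likewise showed no called difference. It lies at 24949611 to 25016927 on chromosome 8, reverse strand (ENSMUSG00000031555). It was at 178, 171 and 162 CPM in Ctrl replicates 1 to 3, against 185, 203 and 158 CPM across ZM replicates 1 to 3. ZM replicate 3 was the lowest of the 6 libraries, and the other ZM libraries were the highest. The log2 fold was 0.10 (SE 0.11, 95% interval -0.17 to 0.36, adjusted p = 0.572, edgeR), and 0.19 without ZM replicate 3 (adjusted p = 0.109).

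The remaining meltrins, Adam19 (meltrin beta) and Adam12 (meltrin alpha, known from the fusion of myoblasts), were scarce. Adam19 (ENSMUSG00000011256, chromosome 11, 46055992 to 46147343, forward strand) was at 3.77, 3.63 and 4.16 CPM in Ctrl replicates 1 to 3, against 3.82, 5.60 and 5.70 CPM across ZM replicates 1 to 3. ZM replicate 1 fell within the Ctrl range, and the difference was not called (log2 fold 0.39, SE 0.20, 95% interval -0.07 to 0.84, adjusted p = 0.214, edgeR). Adam12 (ENSMUSG00000054555, chromosome 7, 133883199 to 134232146, reverse strand) had 4, 4 and 0 counts in Ctrl replicates 1 to 3, against 0, 2 and 4 counts across ZM replicates 1 to 3. At these counts no difference was detectable for Adam12, and no fold is given.

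**Figure D3:**
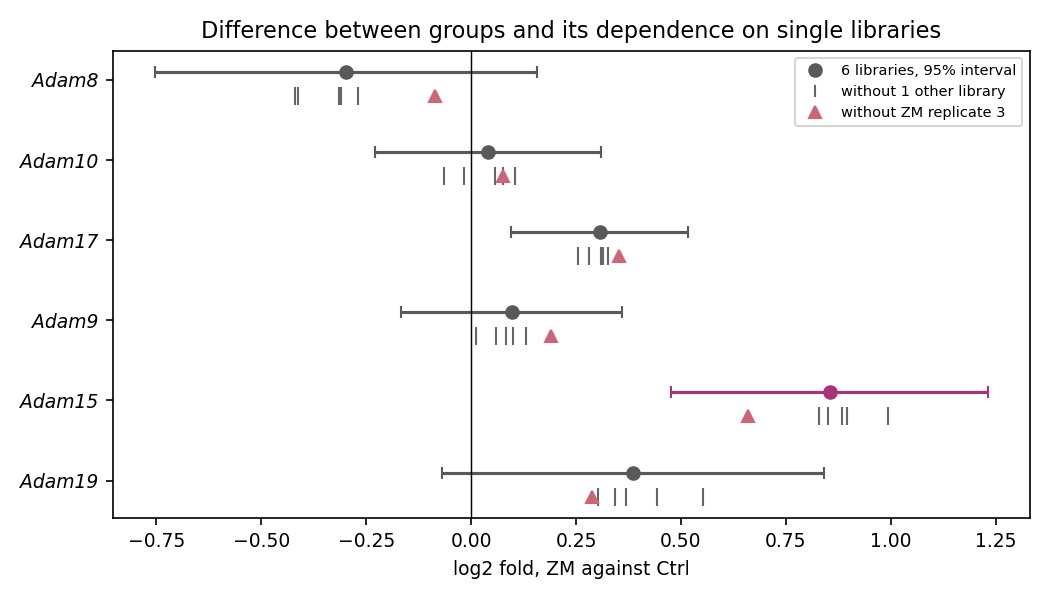
Log2 fold of ZM against Ctrl for the 6 tested ADAM genes, with points and 95% intervals from all 6 libraries (Adam15, the called gene, in purple) and, below each, the values with 1 library left out, a triangle marking the fit without ZM replicate 3. Leaving out that library moved Adam8 from -0.30 to -0.09 and Adam15 from 0.85 to 0.66, while Adam17 went from 0.31 to 0.35.

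As a pool, the 7 transcripts summed to 407 ± 2.10 FPKM in Ctrl and 377 ± 73.2 FPKM in ZM (exact two-sided permutation p = 0.7; 3 against 3 libraries allow no p under 0.1). The make-up of that pool differed in the direction of less Adam8. Adam8 made up 56.0%, 56.7% and 59.5% of the pool across Ctrl replicates 1 to 3, against 52.8%, 50.6% and 39.6% across ZM replicates 1 to 3. Adam15 went from 4.30 ± 0.162% to 8.36 ± 3.28%, Adam17 from 11.2 ± 0.348% to 14.5 ± 1.41% and Adam9 from 10.4 ± 0.510% to 11.6 ± 0.414%. For each of these 4 shares the groups did not overlap, and the exact permutation p was 0.1, the smallest possible, or 0.175 adjusted over the 7 shares. The share of Adam10 overlapped between groups, at 16.6 ± 1.16% and 17.8 ± 2.42% (exact permutation p = 0.5). Without ZM replicate 3 the difference of the means was -5.70 percentage points for Adam8 in place of -9.73, 2.21 for Adam15 in place of 4.06, and 2.45 for Adam17 in place of 3.26. Shares add to a fixed total, so they are not independent of each other.

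**Figure D4:**
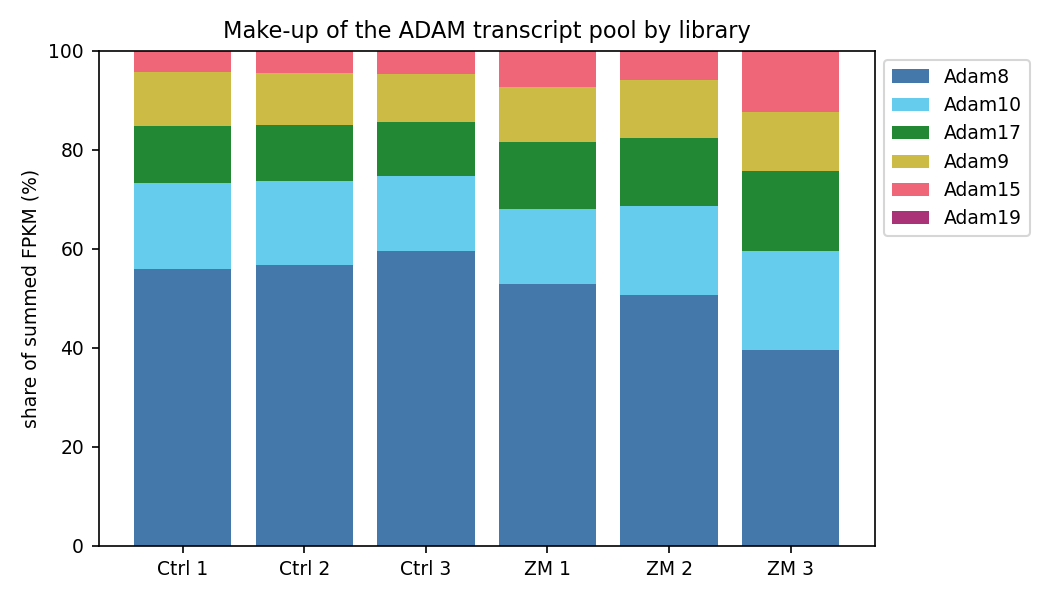
Share of each ADAM gene in the summed FPKM of the 7 genes, as stacked bars from 0 to 100% for each library; Adam19 and Adam12 are too scarce to see. Adam8 fills 56.0% to 59.5% of the Ctrl bars and 39.6% to 52.8% of the ZM bars, with the lowest share in ZM replicate 3.

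Some ADAM proteins need partners to leave the endoplasmic reticulum and to be activated. These are iRhoms (Rhbdf1, Rhbdf2) and Frmd8 for ADAM17, and TspanC8 tetraspanins for ADAM10. In some members, furin-type convertases remove the prodomain. Of 15 genes in the list of such maturation and trafficking partners, 12 were tested, 2 rose, 0 fell and 10 were not called (median log2 fold 0.09); 11% of all genes tested were called, so 2 of 12 is near the background. At an unadjusted p under 0.05 there were 5 higher and 4 lower, with DESeq2 4 rose and 1 fell, and with limma-voom 2 rose and 0 fell. DESeq2 called 3295 of all 15586 genes it tested, against 1711 of 15590 with edgeR and 1631 with limma-voom. Tspan33, a TspanC8 tetraspanin, rose from 2.47 ± 0.689 to 8.82 ± 1.62 CPM (log2 fold 1.83, adjusted p = 0.00801, edgeR). Rhbdf2, which encodes iRhom2, the ADAM17 escort of immune cells, rose from 45.2 ± 3.33 to 69.5 ± 9.86 CPM (log2 fold 0.62, adjusted p = 0.0265, edgeR). Its relative Rhbdf1 averaged 4.27 ± 0.783 CPM in Ctrl against 2.52 ± 0.357 in ZM (log2 fold -0.76), with non-overlapping groups and adjusted p = 0.0552 by edgeR. Tspan14, a TspanC8 tetraspanin at 98.2 ± 2.45 and 97.5 ± 2.84 CPM, and Furin, at 107 ± 3.18 and 105 ± 21 CPM, were not called (adjusted p = 0.940 and 0.911, edgeR). Without a single library, Tspan33 lost its call for Ctrl replicate 3 alone (adjusted p = 0.0586). Rhbdf2 lost it for Ctrl replicates 1, 2 and 3 (adjusted p = 0.142, 0.125 and 0.103) and ZM replicate 1 (0.0781). Rhbdf1 was called in 6 of 18 alternatives: without ZM replicate 2 (0.0418) or 3 (0.0234), without a composition factor (0.0429), with a minimum of 1 CPM in every library (0.0444), with DESeq2 (0.00923) and with limma on log2(FPKM + 1) (0.0487).

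Genes of metalloproteinase inhibitors, a list not limited to inhibitors of ADAM proteins, were not called. Whether each acts on the ADAM members followed here was not tested. Of 5 genes, 3 were tested and 0 were called by edgeR, DESeq2 or limma-voom, with 1 higher at an unadjusted p under 0.05. Among all genes tested, edgeR called 11%. Timp2 was the abundant one by FPKM, averaging 253 ± 4.71 CPM without and 289.8 ± 54.9 CPM with the inhibitor (log2 fold 0.20, adjusted p = 0.341, edgeR). Timp1, an inhibitor of ADAM10, averaged 0.417 ± 0.115 CPM in Ctrl against 0.835 ± 0.208 in ZM (log2 fold 0.99, adjusted p = 0.106, edgeR), and Reck at 0.678 ± 0.0467 and 0.786 ± 0.0824 CPM. Timp3, the main tissue inhibitor of ADAM17, had 8, 14 and 4 counts in Ctrl replicates 1 to 3, against 8, 6 and 4 counts across ZM replicates 1 to 3 and was too scarce to test.

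Genes for proteins that bind ADAM tails, through SH3 domains, were called in both directions. Of 13 tested members of 14, 2 rose, 2 fell and 9 were not called (median log2 fold 0.10), where 5.54% of all genes tested rose and 5.44% fell. DESeq2 called 2 risen and 3 fallen, where it called 3295 of all 15586 genes it tested. With limma-voom 2 were risen and 2 fallen, where it called 1631 of 15590. Sh3pxd2a, the podosome scaffold that binds the tails of ADAM12, ADAM15 and ADAM19, fell from 117 ± 7.90 to 36.1 ± 12.1 CPM (log2 fold -1.70, adjusted p = 0.00830, edgeR), whereas its paralogue Sh3pxd2b, named after its values were seen, was at 208 ± 5.41 and 203 ± 34.7 CPM and was not called. Among Src family kinases, Src, which osteoclasts need for resorption, fell from 223 ± 10.6 to 92.8 ± 21.7 CPM (adjusted p = 0.00862, edgeR). Lyn, another kinase of that family, rose from 180.4 ± 1.09 to 255 ± 40.9 CPM (log2 fold 0.50, adjusted p = 0.0440, edgeR, and 0.0570 with the replicate number as a block). Leaving out Ctrl replicate 1 ended the call of Sh3pxd2a (adjusted p = 0.0518), and leaving out Ctrl replicate 1 or 3 that of Src (0.0542 and 0.0595). Lyn lost the call without any 1 Ctrl library (adjusted p = 0.170 to 0.175) or ZM replicate 1 (0.0783).

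Among 8 integrin chains that ADAM disintegrin domains are known to bind, directly or as the partner chain, 2 fell, 0 rose and 6 were not called (median log2 fold -0.06), where 5.44% of all genes tested fell and 5.54% rose. At an unadjusted p under 0.05 there were 1 higher and 2 lower. DESeq2 called 1 risen and 2 fallen, where it called 3295 of all 15586 genes it tested. With limma-voom 0 were risen and 2 fallen, where it called 1631 of 15590. Those that fell were the chains of the osteoclast vitronectin receptor, Itgav from 506 ± 30.2 to 169 ± 84.5 CPM (log2 fold -1.58, adjusted p = 0.0321, edgeR) and Itgb3 from 79.3 ± 3.73 to 30.8 ± 8.30 CPM (log2 fold -1.36, adjusted p = 0.00915). Itgb5, another beta chain of the list, named after its values were seen, was higher in ZM and not called. It averaged 114 ± 6.46 CPM in Ctrl against 210 ± 85.6 in ZM (log2 fold 0.88, adjusted p = 0.0667, edgeR). Itga9, which with Itgb1 forms a receptor bound by ADAM8, was at 0.764 ± 0.300 and 1.05 ± 0.508 CPM, and Itgb1 at 639 ± 18.8 and 690.2 ± 84.9 CPM; neither was called (adjusted p = 0.518 and 0.502, edgeR). Itgb3 lost the call without any 1 Ctrl library (adjusted p = 0.0527 to 0.0608), and Itgav without any 1 Ctrl library (0.115 to 0.130) or ZM replicate 1 (0.0934).

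Known substrates of ADAM shedding were called in both directions. Of 32 genes, 23 were tested, of which 7 rose, 5 fell and 11 were not called (median log2 fold 0.37), against 5.54% risen and 5.44% fallen among all genes tested. Those that rose included App, the amyloid precursor protein cut by ADAM10, from 555 ± 24.7 to 812 ± 12.7 CPM (log2 fold 0.55, adjusted p = 0.0110, edgeR). Cxcl16, a membrane chemokine cut by ADAM10, rose from 119 ± 5.82 to 284 ± 97.9 CPM (log2 fold 1.26, adjusted p = 0.0182). Mertk, a receptor for apoptotic cells cut by ADAM17, rose from 17.1 ± 1.80 to 44.2 ± 19.5 CPM (adjusted p = 0.0280). Receptors of cytokines were also higher, Tnfrsf1b, the TNF receptor shed by ADAM17, at 419 ± 127 against 225 ± 1.69 CPM (adjusted p = 0.0319) and Il6ra at 99.9 ± 9.27 against 74.7 ± 0.915 CPM (adjusted p = 0.0366, and 0.0658 with the replicate number as a block).

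The substrate genes that fell included Jag1, a Notch ligand, from 17.4 ± 1.76 to 8.03 ± 1.48 CPM (log2 fold -1.12, adjusted p = 0.00921, edgeR), and Notch1, from 14.4 ± 1.66 to 8.63 ± 2.04 CPM (log2 fold -0.74, adjusted p = 0.0479). The Notch1 call was lost in 7 of 18 alternatives: without a composition factor (adjusted p = 0.0586), with limma on log2(FPKM + 1) and log2(FPKM + 0.1) (0.0647 and 0.0863), without ZM replicate 1 (0.123) and without any 1 Ctrl library (0.134 to 0.183). Sdc1, the shed proteoglycan syndecan-1, fell from 399 ± 13.7 to 242 ± 44.1 CPM, and Hbegf, an EGF receptor ligand released by ADAM17, from 2.84 ± 0.648 to 0.935 ± 0.324 CPM (adjusted p = 0.0239 and 0.0243, edgeR). The other called genes of this list, named after their values were seen, were Tnfrsf1a and Icam1, which rose, and Axl, which fell. Notch2, the more abundant Notch receptor of the pair by FPKM, was at 164 ± 5.02 and 187 ± 17.6 CPM (adjusted p = 0.229). Tnf, at 22.6 ± 1.53 and 31.8 ± 4.86 CPM, and Csf1r, the M-CSF receptor cut by ADAM17, at 1306 ± 32.8 and 1840 ± 447 CPM, were not called (adjusted p = 0.0590 and 0.0920, edgeR). Tnf was called without ZM replicate 3 (adjusted p = 0.00149) and with DESeq2 (0.0145). Csf1r was called without ZM replicate 2 (0.0286) or ZM replicate 3 (0.0133) and with DESeq2 (0.0462). Exons of Cxcl16 overlap Zmynd15 on the opposite strand by 552 bases (3803 counts against 60624). In a fit without ZM replicate 3, 10 substrate genes rose and 5 fell, where 3120 of all 16024 genes tested were called. In that fit the log2 fold of Mertk was 0.95 in place of 1.37 and that of Tnfrsf1b 0.62 in place of 0.90. DESeq2 called 11 risen and 5 fallen, where it called 3295 of all 15586 genes it tested. Without ZM replicate 1 edgeR called 2 risen and 2 fallen, where 669 of all 16049 genes tested were called. Without any 1 Ctrl library 0 of the list were called in either direction, with only 148 to 224 genes called among all genes tested.

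**Figure D5:**
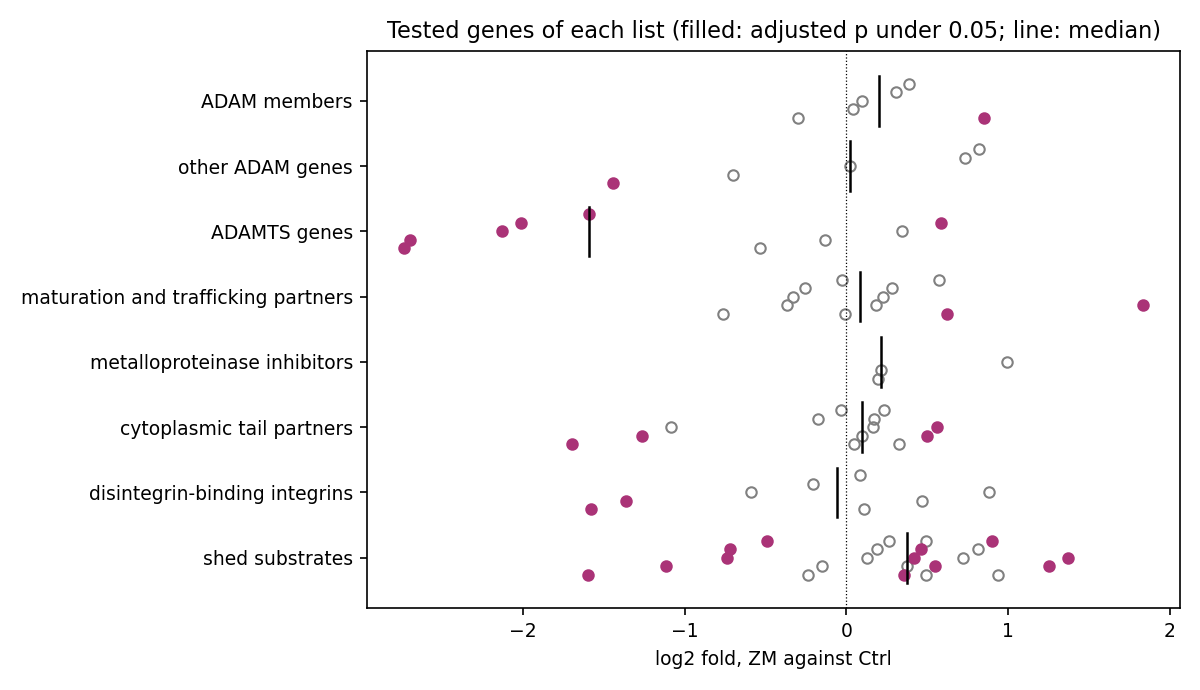
Log2 fold of ZM against Ctrl for each tested gene of the ADAM members and of 7 related lists, with filled points for genes with an adjusted p under 0.05 and a vertical line at each list's median. The ADAM members lie between -0.30 and 0.85 around a median of 0.20, and the shed substrates spread on both sides of 0 around 0.37. The ADAMTS genes have a median of -1.59, which includes scarce genes that entered the test through Ctrl alone.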

How the data were processed

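mRNA libraries of 3 Ctrl and 3 ZM cultures were compared, with groups and replicate numbers from the sample labels. The deposited table held whole-number counts per gene, not normalized, and FPKM that the authors had computed from them. Tools listed in the submitters' processing notes, without role or order, are DESeq2, Subread, featureCounts 2.0.3 and HISAT2 2.2.1, and the build is mm10; no source used here gives the annotation release or strand setting. Even values made up 72.7% to 76.4% of the counts from 1 to 20 in a library, as when both mates of a pair are counted, so there were fewer fragments than counts. Gene lengths recovered from the FPKM equalled the merged exons of GENCODE M21 (GRCm38) for all 7 ADAM genes; positions and overlaps are from that release.

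The test on counts was that of edgeR 4.0.16, run under R 4.3.3 (filterByExpr, TMM factors, quasi-likelihood F test on group, Benjamini-Hochberg over 15590 genes, threshold 0.05). Rose and fell refer to that threshold. CPM use TMM-scaled library sizes; the SE is the log2 fold over the square root of F. FPKM entered levels, shares and 2 limma 3.58.1 alternatives. Chi-square per degree of freedom between libraries of a group was 6.26 to 9.38 in Ctrl and 51.5 to 242 in ZM, so none was a duplicate. The analysis was also run on simulated counts. Those had the same spread in both groups, so the run did not check the test under the wider spread of the ZM libraries. Named genes were the ADAM members, a set of partners and substrates, up to 8 called genes per list with at least 1 CPM in a group, and the 3 genes closest to each called member; a called member of the tail-partner list is not reported here by name. The members, lists and tests were chosen with earlier results of these data known.

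Alternatives were RLE factors, no composition factor, DESeq2 1.42.0, robust estimation, limma-voom, no filter, a minimum of 1 CPM in every library, the replicate number as a block, the 20 most abundant genes left out, limma on log2(FPKM + 1) and on log2(FPKM + 0.1), and each library left out in turn; counts divided by 2 were an alternative chosen after seeing the data.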

Additional observations from a re-analysis of the deposited data

How the results depend on the processing

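The number of genes called was 1711, and 3295 with DESeq2, the 1711 among them; it ranged from 148 to 5023 with 1 library left out. The number of ADAM genes that rose was 1, and 2 with DESeq2 (Adam15 and Adam17), and ranged from 0 to 2 with 1 library left out; 0 fell in any alternative. With the replicate number as a block, 1679 genes were called (1360 of the 1711) and 1 ADAM gene rose. No pairing by replicate number was evident: deviations from the group means of same-numbered libraries correlated at 0.020, 0.053 and 0.14, and 3 of 6 libraries correlated best with their own number. With 3 libraries per group this check cannot exclude a pairing. Adam10 turned sign without a composition factor (-0.022) and with limma on log2(FPKM + 1) (-0.031) or log2(FPKM + 0.1) (-0.032), and ranged from -0.064 to 0.10 with 1 library left out. With 1 library left out, Tspan14 ranged from -0.033 to 0.0085 and Furin from -0.20 to 0.058. Of 712 values of named genes under the alternatives, 603 kept direction and side of the threshold, 86 lost the call, 14 gained it and 9 turned sign. Of the 22 called and named genes outside the ADAM members (partners, integrins, substrates, ADAMTS genes and Adam3), 0 kept the call without each single library and 22 kept it without ZM replicate 3. Of all 1711 called genes, 1701 kept the call without ZM replicate 3, and 179, 224 and 148 without Ctrl replicates 1, 2 and 3. Without ZM replicate 3, the share of named genes that kept the call was thus close to that of called genes at large. How many of all called genes kept the call without each single library was not counted. Depth limited Adam12 and Timp3.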

Other observations

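Other ADAM genes and the secreted ADAMTS relatives, proteases without a membrane anchor that cut matrix proteins, were mostly scarce. Of 27 other ADAM genes, 5 were tested, 1 fell and 0 rose by edgeR, which called 11% of all genes tested. At an unadjusted p under 0.05, 1 was higher and 1 lower. DESeq2, which called 3295 of 15586 genes, gave 1 risen and 1 fallen. With limma-voom, which called 1631 of 15590 genes, 0 were risen and 1 fallen. Adam3, a gene known from sperm, fell from 2.16 ± 0.487 to 0.789 ± 0.280 CPM (log2 fold -1.44, adjusted p = 0.0381, edgeR); leaving out 1 Ctrl library gave an adjusted p of 0.0966 to 0.152, and leaving out ZM replicate 1 gave 0.0760. Adam33 was at 1.84 ± 0.213 and 3.07 ± 1.92 CPM (adjusted p = 0.281, edgeR; log2 fold 0.73, and 0.15 without ZM replicate 3), and was called without ZM replicate 2 (1.09, adjusted p = 0.0328). Adamdec1 had 4 counts in Ctrl replicate 1 and 0 in the other libraries, and Adam28 was not analysed here. The summed mast cell or basophil and erythroid markers, at levels like those of Adam3, were also lower in every ZM library than in every Ctrl library. Most genes of these 2 sets were under 1 CPM or not analysed, and their part in these falls was not tested.

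Of 24 ADAMTS and ADAMTS-like genes, 9 were tested, 5 fell, 1 rose and 3 were not called (median log2 fold -1.59). Among all genes tested, 5.44% fell and 5.54% rose. The other 15 of the list were too scarce or not analysed here. A scarce gene could pass the filter through the libraries of a single group. Adamts4 (22, 28 and 34 counts in Ctrl, 6, 1 and 6 in ZM) and Adamts14 (36, 80 and 65 against 14, 10 and 4) passed through Ctrl. The number of falls and the median thus depend in part on which scarce genes were admitted. Adamts1, an aggrecan- and versican-cutting protease, fell from 1.66 ± 0.127 to 0.376 ± 0.171 CPM (log2 fold -2.13, adjusted p = 0.0134, edgeR), Adamts14, a procollagen peptidase, from 1.21 ± 0.406 to 0.178 ± 0.0880 CPM (adjusted p = 0.0162) and Adamts7 from 2.91 ± 0.609 to 0.716 ± 0.438 CPM (adjusted p = 0.0422). Adamts10, a protease linked to fibrillin, rose from 20.7 ± 0.721 to 31.0 ± 4.84 CPM (log2 fold 0.58, adjusted p = 0.0329). Exons of Adamts7 overlap Tbc1d2b on the opposite strand by 122 bases, and Tbc1d2b had 43388 counts against 543. The remaining fallen genes, Adamts4 and Adamts13, were under 1 CPM in both groups and were named after their values were seen. Without a single Ctrl library the adjusted p was 0.0659 to 0.0796 for Adamts1, 0.0516 to 0.0888 for Adamts14, 0.118 to 0.160 for Adamts7 and 0.136 to 0.161 for Adamts10; without ZM replicate 1 it was 0.0793 for Adamts7 and 0.0783 for Adamts10. Without ZM replicate 1, 2 of the list fell and 0 rose, where 669 of all 16049 genes tested were called. Without ZM replicate 3, 5 fell and 1 rose, where 3120 of 16024 were called.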
